A study of Mus musculus with 12 samples.

Results

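The comparison described here set RAW264.7 cells given ferulic acid and then lipopolysaccharide (LPS) against RAW264.7 cells given LPS alone. RAW264.7 is a mouse macrophage-like cell line. It used 8 of the 12 poly(A) RNA sequencing libraries, chosen by their labelled group: 4 from cells given ferulic acid at 10 µM for 12 h and then LPS, and 4 from cells given only LPS at 1 µg/mL for 24 h. The LPS step after ferulic acid also used 1 µg/mL and lasted 24 h, so both groups carry the LPS treatment. The other 4 libraries, from untreated control cells, were not compared. They entered the filter on low counts, the scaling and the estimate of the spread between libraries, and their levels are given for reference. Of the 25192 genes with a read in some library, 14065 passed the filter on low counts and were tested. The labels give no group with ferulic acid alone. They name no separate cultures within a group either, so the spread behind each p-value may be technical only. All libraries came from 1 cell line, and in bulk RNA a change in the number of cells expressing a gene cannot be told apart from a change in the level per cell.

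LPS, from the outer membrane of Gram-negative bacteria, is sensed by macrophages through Toll-like receptor 4 (TLR4), whose adaptors activate NF-kB, AP-1 and interferon regulatory factors. These switch on cytokine genes such as Tnf, the nitric oxide synthase gene Nos2 and the cyclooxygenase gene Ptgs2, together with genes that later dampen the response. Ferulic acid is a phenolic acid of plant cell walls with antioxidant chemistry, and the series title names TLR4 and peroxiredoxin 1, a thiol peroxidase encoded by Prdx1. The question of the comparison was which transcripts differed when ferulic acid preceded LPS.

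The 28 genes called lower after ferulic acid included Hmox1, Nos2, Lta and Slpi, all far above their control level in LPS cells, and the signalling adaptor gene Sh2d3c. The 12 called higher included the cell cycle genes Rb1 and Cul1, the nuclear envelope gene Lbr and the fatty acid elongase gene Elovl6. Calling used edgeR's quasi-likelihood F test with Benjamini-Hochberg adjustment over the 14065 tested genes and a threshold of 0.05. Calls made up 0.284% of the tested genes, 0.0853% higher and 0.199% lower. The smallest adjusted p was 0.0115, and 3236 genes had an unadjusted p under 0.05. The calls depended on which libraries were fitted, and most of their adjusted p-values lay just under the threshold. With only the 8 compared libraries 0 genes were called (smallest adjusted p 0.173, 2082 genes at an unadjusted p under 0.05), and 0 were called without LPS library 1 (2781 genes) or LPS library 4 (2057 genes). Without any 1 control library 1 gene was called, Sh2d3c, and with each library's trend over GC content removed 4 were. Every ferulic acid library lay above every LPS library in 375 genes (2.67%), and every one lay below in 613 (4.36%). All called genes except Mfsd14b were among these non-overlapping genes. Levels are given as CPM, read counts scaled to a common library size, in the order of libraries 1 to 4, and fold changes are on the log2 scale.

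The ferulic acid libraries differed more among themselves than the LPS libraries did. The median over genes of the SD of log2 CPM was 0.399 in the ferulic acid group, 0.242 in the LPS group and 0.155 in the control group. On the first principal component of the 8 libraries, which held 35.0% of the variance, ferulic acid libraries 1 to 4 scored -46.8, 30.3, 5.41 and -78.9, and the LPS libraries scored between 10.4 and 40.4. Libraries 1 and 4 thus lay outside the LPS range on one side, library 2 lay within it and library 3 just below it. Total counts ran from 32548423 to 49961581 in the ferulic acid group and from 35866432 to 47276784 in the LPS group. Among 7991 well measured genes, 20, 0, 24 and 157 genes of ferulic acid libraries 1 to 4 were at least 2-fold above the highest LPS library. In the same order 36, 6, 0 and 185 genes were at least 2-fold below the lowest. An LPS library held against the other 3 had at most 4 such genes above and 2 below.

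The cells carried the macrophage transcripts Lyz2 and Cd68, and most transcripts that define other cell types were near 0. Lyz2, the macrophage lysozyme, read 395, 400.2, 424 and 361 CPM in the LPS libraries and 535, 426, 437 and 541 CPM in the ferulic acid libraries. Cd68, a lysosomal glycoprotein of macrophages, read 1004, 919, 953 and 1127 and 636, 859.8, 918 and 504 CPM in the same order. Neither was called, although the groups did not overlap for either gene. In a list of 19 macrophage identity genes 17 were tested and 0 called, with 8 positive and 9 negative log2 fold changes. Without overlap 2 lay above and 2 below, beside 2.67% and 4.36% of all tested genes. Markers of other cells are called detected if any of the 12 libraries held a read, and some of them had 0 reads in a compared group. Summed over the 5 detected of 10 T and NK cell markers, levels ran from 23.7 to 34.6 CPM in ferulic acid and from 31.5 to 35.7 CPM in LPS libraries, nearly all of it Lck. The 5 detected of 7 B cell markers summed to between 87.5 and 173 CPM after ferulic acid and between 141 and 182 CPM with LPS, nearly all of it Ighm. The B cell receptor gene Cd79a had at most 2.47 CPM. The 5 detected of 8 fibroblast markers summed to between 3.07 and 6.35 CPM after ferulic acid and between 1.52 and 2.18 CPM with LPS, and none of the 3 tested was called. Most of the sum was Lum, the lumican gene, at 5.13, 1.94, 2.37 and 2.79 CPM against 0.871, 1.29, 1.36 and 1.48 CPM. The collagen gene Col3a1 had 0 reads in all 8 libraries, and Col1a1 had at most 4. The part of these cell markers in the results below was not tested.

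Lta and Tnf are neighbouring genes that encode the cytokines lymphotoxin alpha and tumour necrosis factor. Their promoters are shown because both genes lay below every LPS library in each ferulic acid library. Each sequence runs from 250 bases before to 50 bases after the start of the gene, from RefSeq on build GRCm38.p6, minus strand, with the letters TATAAA in capitals.
Lta, chr17:35205302-35205601: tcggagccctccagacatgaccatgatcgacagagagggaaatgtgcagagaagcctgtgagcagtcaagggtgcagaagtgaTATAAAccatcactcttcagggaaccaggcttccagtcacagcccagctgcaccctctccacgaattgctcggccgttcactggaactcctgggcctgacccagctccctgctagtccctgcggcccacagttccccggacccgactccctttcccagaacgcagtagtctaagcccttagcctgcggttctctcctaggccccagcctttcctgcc
Tnf, chr17:35201958-35202257: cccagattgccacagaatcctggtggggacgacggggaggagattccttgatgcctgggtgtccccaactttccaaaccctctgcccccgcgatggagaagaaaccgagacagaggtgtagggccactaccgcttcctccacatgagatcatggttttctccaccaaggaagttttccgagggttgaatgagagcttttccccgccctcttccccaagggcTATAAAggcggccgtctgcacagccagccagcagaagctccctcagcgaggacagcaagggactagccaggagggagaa
The letters TATAAA begin 29 bases before the start of Tnf and 167 bases before that of Lta, and 13.6% of 32851 RefSeq promoters of the same length hold them on either strand. On either strand, neither window holds GGGA followed by any 3 bases and TCC, one form of the NF-kB motif, which 4.59% of the promoters hold, or TGANTCA, the AP-1 motif, which 7.81% hold. This says only that these letters are not in these windows.

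Lta read 97.9, 93.1, 81.3 and 88.2 CPM in the LPS libraries and 51.2, 29.9, 42.6 and 53.9 CPM in the ferulic acid libraries, and its control mean was 0.0598 ± 0.0359 CPM (SD, n = 4). Each ferulic acid library lay well below the lowest LPS library, and library 2 was the lowest (log2 fold change -1.02, SE 0.18, adjusted p = 0.0476). Tnf read 490.5, 442, 434 and 636 CPM with LPS and 293, 309, 379.7 and 279.9 CPM after ferulic acid, against 13.5 ± 2.59 CPM in control. The groups did not overlap, but Tnf missed the threshold (log2 fold change -0.67, SE 0.16, adjusted p = 0.0797, 95% interval -1.01 to -0.32). Of the other tested cytokine genes, Osm, which encodes oncostatin M, also had no overlap, with 29.2, 26, 27.7 and 36.8 CPM and then 21, 24, 25.8 and 16.6 CPM (log2 fold change -0.45, adjusted p = 0.202). Over the 17 proinflammatory cytokine genes tested, 1 was called, 3 lay below in every library (beside 4.36% of all tested genes), 0 lay above in every library and the median log2 fold change was 0.13, beside 0.02 over all tested genes. That median was -0.18 without ferulic acid libraries 1 and 4 and 0.34 without libraries 2 and 3.

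Hmox1, which encodes the haem-degrading enzyme haem oxygenase 1, read 657, 634, 613 and 932 CPM with LPS and 279.6, 382, 458 and 236 CPM after ferulic acid (log2 fold change -1.06, SE 0.19, adjusted p = 0.0476). The groups did not overlap, and the control mean was 113 ± 6.27 CPM. LPS library 4 was the highest and ferulic acid library 4 the lowest. Nos2, the inducible nitric oxide synthase gene, read 303, 285, 298 and 372 CPM and then 138, 209, 214 and 113 CPM, with 12.4 ± 0.984 CPM in control (log2 fold change -0.90, SE 0.18, adjusted p = 0.0487). Ferulic acid libraries 1 and 4 were the lower pair for both genes. Among 17 genes of haem and iron handling, Hmox1 was the 1 called, and Slc11a2, Lcn2 and Slc40a1 were also lower in every ferulic acid library. The shares over all tested genes were 0.199% called lower and 4.36% below without overlap. Lcn2, whose product lipocalin 2 binds bacterial siderophores, read 2934, 2729, 2803 and 3044 CPM with LPS and 1608, 1767, 2180.0 and 1591 CPM after ferulic acid (adjusted p = 0.112). The list's median was -0.33, and -0.16 once each library's GC trend was removed. It was -0.13 without ferulic acid libraries 1 and 4 and -0.54 without libraries 2 and 3. Among 8 enzymes of nitric oxide, arginine and itaconate metabolism, 3 lay below without overlap, beside the same 4.36% over all tested genes. Beside Nos2 these were Ass1 (15.2, 11.1, 16.2 and 11.3 CPM with LPS and 4.39, 8.24, 9.27 and 5.07 CPM after ferulic acid), which remakes arginine from citrulline, and Arg2, a mitochondrial arginase. Neither was called, with adjusted p = 0.094 and 0.359, and the median over the 8 was -0.28.

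**Figure D1:**
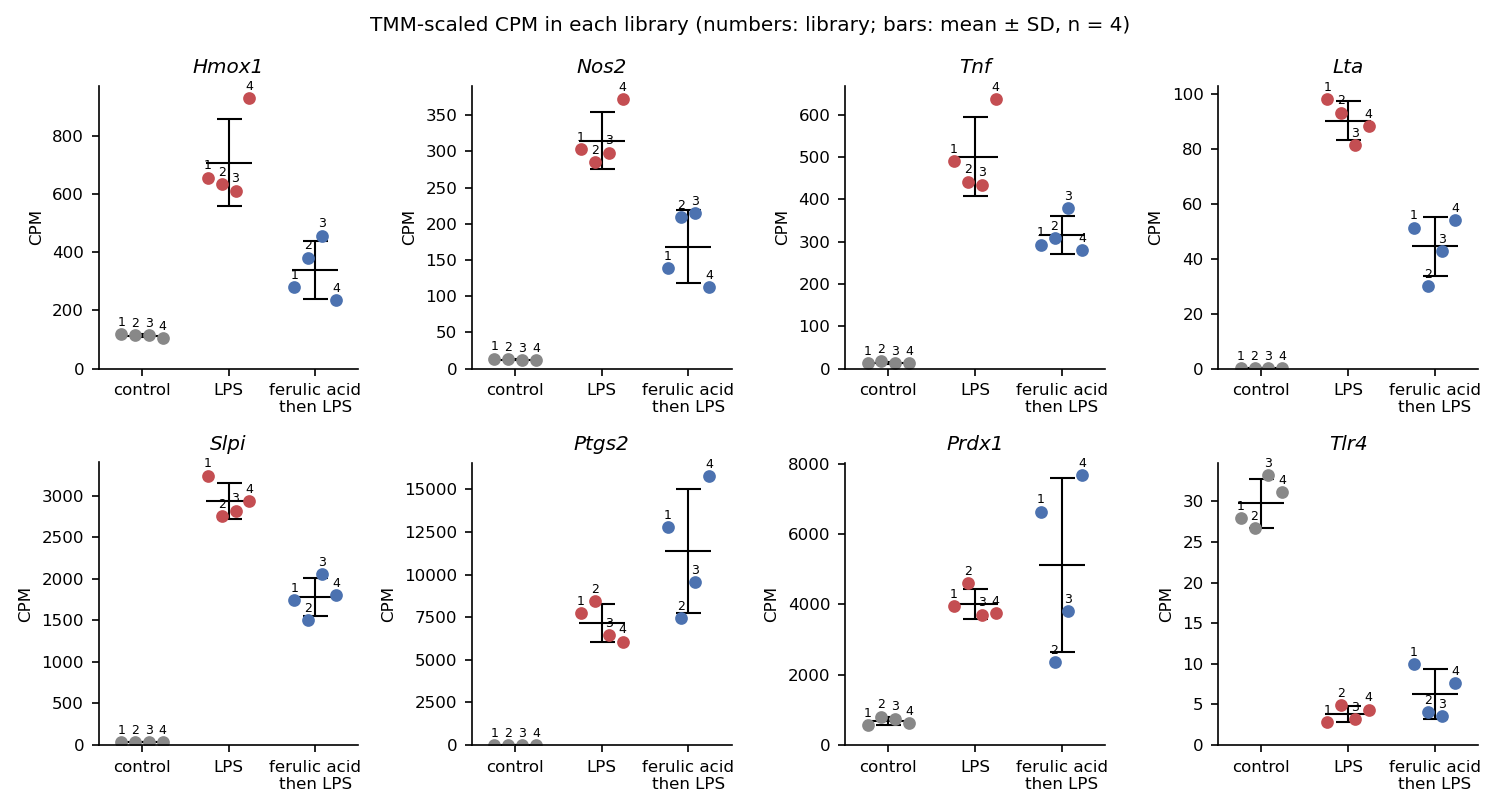
TMM-scaled CPM of 8 genes in each control, LPS and ferulic acid then LPS library, with numbered points and bars for the mean ± SD (n = 4). Hmox1, Nos2, Tnf, Lta and Slpi have no overlap between the last 2 groups, while Prdx1 is high in ferulic acid libraries 1 and 4 and at or below the LPS level in 2 and 3.

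Several called genes encode secreted or cell-surface proteins. Slpi, a secreted inhibitor of neutrophil elastase, read 3237, 2751, 2818 and 2930.0 CPM with LPS and 1742, 1504, 2057 and 1802 CPM after ferulic acid, with a control mean of 35.6 ± 2.29 CPM. Every ferulic acid library lay below the lowest LPS library (log2 fold change -0.72, SE 0.13, adjusted p = 0.0476). Gprc5a, a retinoic acid-induced orphan receptor gene, fell from 14.7, 10.1, 12.1 and 23.1 CPM to 3.91, 3.44, 7.2 and 3.64 CPM, with library 3 the highest of the ferulic acid group (log2 fold change -1.72, SE 0.30, adjusted p = 0.0476). Prss56, a serine protease gene with 0 reads in every control library, fell from 16.4, 14.4, 13.1 and 17.2 CPM to 7.94, 5.72, 7.59 and 3.82 CPM (log2 fold change -1.28, SE 0.23, adjusted p = 0.0476). Hyal1, which encodes a lysosomal hyaluronidase, had 7.37, 5.88, 8.25 and 14.7 CPM with LPS and 2.2, 3.25, 3.71 and 0.808 CPM after ferulic acid (log2 fold change -1.84, SE 0.35, adjusted p = 0.0476). Its exons overlap those of Hyal3 and Naa80 on the same strand, so reads could be shared between these genes. Anpep, the aminopeptidase CD13, fell from 35.5, 42, 40.6 and 52.7 CPM to 17.8, 24.5, 24.2 and 10.3 CPM (log2 fold change -1.15, SE 0.22, adjusted p = 0.0476).

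Plau, the urokinase-type plasminogen activator gene, fell from 16.5, 17.2, 16.5 and 22 CPM to 8.67, 11.1, 10.5 and 9.15 CPM (log2 fold change -0.87, SE 0.14, adjusted p = 0.0476). Its control level was 34.9 ± 1.41 CPM, above both groups. Of the 16 plasminogen activator and metalloproteinase genes tested, Plau and Anpep were the 2 called. For comparison, 0.199% of all tested genes were called lower, and 4.36% lay below and 2.67% above without overlap. Adam8 and Mmp9 were lower in every library without a call, and Mmp9, the gelatinase gene, read 16.5, 15.1, 18.6 and 21.3 CPM and then 9.97, 6.77, 12.5 and 9.95 CPM (adjusted p = 0.0988). Serpinb2, an inhibitor of urokinase, was the 1 member above in every library, at 1.09, 0.557, 0.694 and 0.96 CPM with LPS and 2.36, 1.15, 1.19 and 1.84 CPM after ferulic acid (adjusted p = 0.22). The median of the list was -0.21, and -0.07 without ferulic acid libraries 2 and 3. Among the other calls, Pmp22, a tetraspan membrane protein gene known from myelin, had a log2 fold change of -0.71 (SE 0.13), and St6galnac4, a sialyltransferase gene, -0.68 (SE 0.13).

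The call with the smallest adjusted p was Sh2d3c, an adaptor gene with an SH2 domain that acts in integrin and Ras-family signalling. It read 16.4, 13.1, 11.6 and 18.1 CPM with LPS and 7.24, 5.82, 6.33 and 6.13 CPM after ferulic acid (log2 fold change -1.21, SE 0.16, adjusted p = 0.0115, 95% interval -1.55 to -0.88). Its 4 ferulic acid values lay within 1.5 CPM of each other, and the control mean was 27.2 ± 1.51 CPM. Its exons overlap those of 6330409D20Rik, a protein-coding gene on the opposite strand, so reads of the 2 genes cannot be told apart if strand was not used in counting. Tbc1d2, a GTPase-activating protein for Rab7, fell from 16, 18.3, 17 and 26.2 CPM to 5.9, 10.4, 12.3 and 5.36 CPM (log2 fold change -1.18, SE 0.24, adjusted p = 0.0487). Rab3il1, an exchange factor for Rab8, fell from 66.1, 73, 63.2 and 80.9 CPM to 36.4, 37.6, 52.5 and 36.1 CPM, with library 3 nearest to LPS (log2 fold change -0.80, SE 0.14, adjusted p = 0.0476). Arhgef10l, an exchange factor of small GTPases, had a log2 fold change of -0.66, SE 0.13. The list of 20 small GTPase regulators was drawn up around Sh2d3c and Tbc1d2 once both were known to be called. For comparison, 0.199% of all tested genes were called lower and 4.36% lay below without overlap. In the list Sh2d3c and Tbc1d2 were the 2 called, as that choice fixed. The called genes Rab3il1 and Arhgef10l were not in the list. Without overlap 5 of its genes lay below, Sh2d3c and Tbc1d2 among them. Arhgap25 (-0.70, adjusted p = 0.0866), Arhgef1 and Rab20 were the other 3, and the median was -0.28. Without libraries 1 and 4 that median was -0.08, and without libraries 2 and 3 it was -0.56.

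Other calls had varied roles. Wdr81, needed for endosome maturation, fell from 13.9, 15.7, 13.3 and 20.3 CPM to 7.98, 8.26, 8.36 and 5.8 CPM (log2 fold change -1.05, SE 0.16, adjusted p = 0.0353). The control mean of Wdr81 was 90.4 ± 6.0 CPM. Ptpn23, an endosomal sorting protein with a phosphatase domain, fell from 116, 109, 104 and 134 CPM to 65, 75.7, 82.3 and 52 CPM (log2 fold change -0.75, SE 0.15). Parvb, an integrin-linked actin-binding protein, fell from 89.5, 85.1, 70.3 and 101 CPM to 48.4, 50.8, 64.4 and 45.2 CPM (log2 fold change -0.73, SE 0.14). Library 3 was the nearest to LPS for the last 2 genes. Cchcr1, a centrosomal protein gene (-0.96), Fam20c, the kinase of secreted proteins (-0.77), and 1700017B05Rik (-0.85) were also called lower. Inka2, an inhibitor of the kinase PAK4, had the largest fitted fall of the 40 called genes (-4.06, SE 0.78) on very few reads. Its raw counts were 18, 6, 40 and 28 with LPS and 0, 3, 2 and 0 after ferulic acid.

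Of the remaining genes called lower, Fosl2, which encodes the AP-1 subunit Fra-2, read 99.2, 81.7, 88.8 and 94.3 CPM with LPS and 50.5, 58.4, 64.3 and 52.5 CPM after ferulic acid (log2 fold change -0.69, SE 0.13, adjusted p = 0.0476). Its ferulic acid level was close to the control mean of 48.3 ± 5.9 CPM. Ell, a transcription elongation factor, fell from 41.7, 41.2, 44.7 and 57.6 CPM to 22.5, 28.4, 29.9 and 16.7 CPM (log2 fold change -0.92, SE 0.17, adjusted p = 0.0476). Among 15 transcription elongation genes Ell was the 1 called, and its relative Ell2 was the 1 above without overlap (log2 fold change 0.64, adjusted p = 0.0808). The shares over all tested genes were 0.199% called lower and 2.67% above without overlap. The list's median was -0.14, 0.01 without libraries 1 and 4 and -0.56 without libraries 2 and 3. Sf3b4, a subunit of the splicing factor SF3b, fell from 203, 183, 162 and 206 CPM to 115, 109.6, 137 and 101 CPM (log2 fold change -0.70, SE 0.13, adjusted p = 0.0476). Aar2, an assembly factor of the U5 snRNP, read 11.4, 10.7, 8.62 and 12.3 CPM and then 6.35, 4.83, 7.72 and 3.86 CPM, with library 3 near the lowest LPS value (log2 fold change -0.91, SE 0.19, adjusted p = 0.0497). The list of 24 splicing factors and hnRNPs, which holds Aar2 as its 1 called gene but not Sf3b4, had the opposite sign. Of its genes 17 had a positive and 7 a negative log2 fold change, and Hnrnpu was the 1 above without overlap. The median was 0.23, with library medians of 0.31, 0.19, 0.01 and 0.42, and 0.02 with the GC trend removed. Ncoa5, a nuclear receptor coactivator gene, had a log2 fold change of -0.65, SE 0.13. Ercc1, which encodes a subunit of a DNA repair nuclease, read 347, 298, 243 and 346 CPM with LPS, 176, 158, 224 and 139 CPM after ferulic acid and 1.92 ± 0.148 CPM in control (log2 fold change -0.82, SE 0.16, adjusted p = 0.0476). In an annotation of an earlier build its exons overlap those of Cd3eap on the opposite strand, and no source used here states whether the counting used strand, so the 2 genes cannot be told apart. The exons of 11 of the 40 called genes overlap another annotated gene, 8 of them on the opposite strand, among them Lbr (Dnah14) and Rmi1 (Hnrnpk).

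The 12 genes called higher had log2 fold changes of 0.74 to 1.26, apart from Gm4631. Rb1, the retinoblastoma tumour suppressor, read 8.93, 11.4, 8.3 and 10.5 CPM with LPS, 17, 14.2, 15.8 and 18.2 CPM after ferulic acid and 43.5 ± 4.4 CPM in control (log2 fold change 0.74, SE 0.15, adjusted p = 0.0476). Its exons overlap those of Lpar6 and Rcbtb2 on the opposite strand. Cul1, the scaffold of SCF ubiquitin ligases, rose from 14.1, 14.7, 16.3 and 14 CPM to 29.6, 20.4, 21.9 and 36 CPM, with libraries 1 and 4 the higher pair (log2 fold change 0.87, SE 0.17, adjusted p = 0.0476). Lbr, the lamin B receptor and a sterol reductase, rose from 20.9, 21.1, 25.5 and 26.4 CPM to 38.5, 38.8, 58.5 and 31.3 CPM, with library 3 the highest (log2 fold change 0.83, SE 0.17, adjusted p = 0.0487). Rmi1, a partner of the BLM helicase, rose from 2.0, 1.88, 1.83 and 1.65 CPM to 4.07, 3.38, 4.13 and 3.78 CPM (log2 fold change 1.06, SE 0.21, adjusted p = 0.0476). Elovl6, the enzyme that elongates palmitate, rose from 2.21, 2.37, 2.25 and 2.39 CPM to 6.14, 3.86, 3.41 and 4.3 CPM, and its control mean was 27.4 ± 2.65 CPM (log2 fold change 0.93, SE 0.19, adjusted p = 0.0487). For each of these 5 genes every ferulic acid library lay above every LPS library and below every control library except Cul1, whose library 4 lay within the control range.

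Evi2a, a membrane protein gene inside an intron of Nf1, rose from 47, 42.6, 39.3 and 31.9 CPM to 92, 48.2, 125 and 102 CPM (log2 fold change 1.19, SE 0.21, adjusted p = 0.0476). Library 2 lay just above the LPS range and the other 3 far above it. Its exons overlap those of Evi2 on the same strand. Heca, the homologue of the fly gene headcase, rose from 16.9, 19.6, 16.4 and 17.8 CPM to 35.6, 21.7, 45 and 32 CPM, again with library 2 nearest to LPS (log2 fold change 0.93, SE 0.18, adjusted p = 0.0476). Mfsd14b, a transporter-family gene, rose from 22.2, 29.1, 24.7 and 20.7 CPM to 46.9, 28.8, 74.5 and 57.5 CPM, and library 2 lay within the LPS range (log2 fold change 1.10, SE 0.22, adjusted p = 0.0487). Fam133b and Edrf1 had log2 fold changes of 0.88, SE 0.17 and 1.10, SE 0.22. Mfsd4b4, which has near copies among the other Mfsd4b genes, had 14, 26, 34 and 48 reads with LPS and 58, 80, 84 and 58 after ferulic acid, and in control 599, 626, 732 and 493. Gm4631, a predicted gene, had 0, 13, 7 and 16 reads with LPS and 134, 50, 509 and 1083 after ferulic acid. Its control libraries held 25, 184, 103 and 0 reads, so its level also varied widely within an untreated group.

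**Figure D2:**
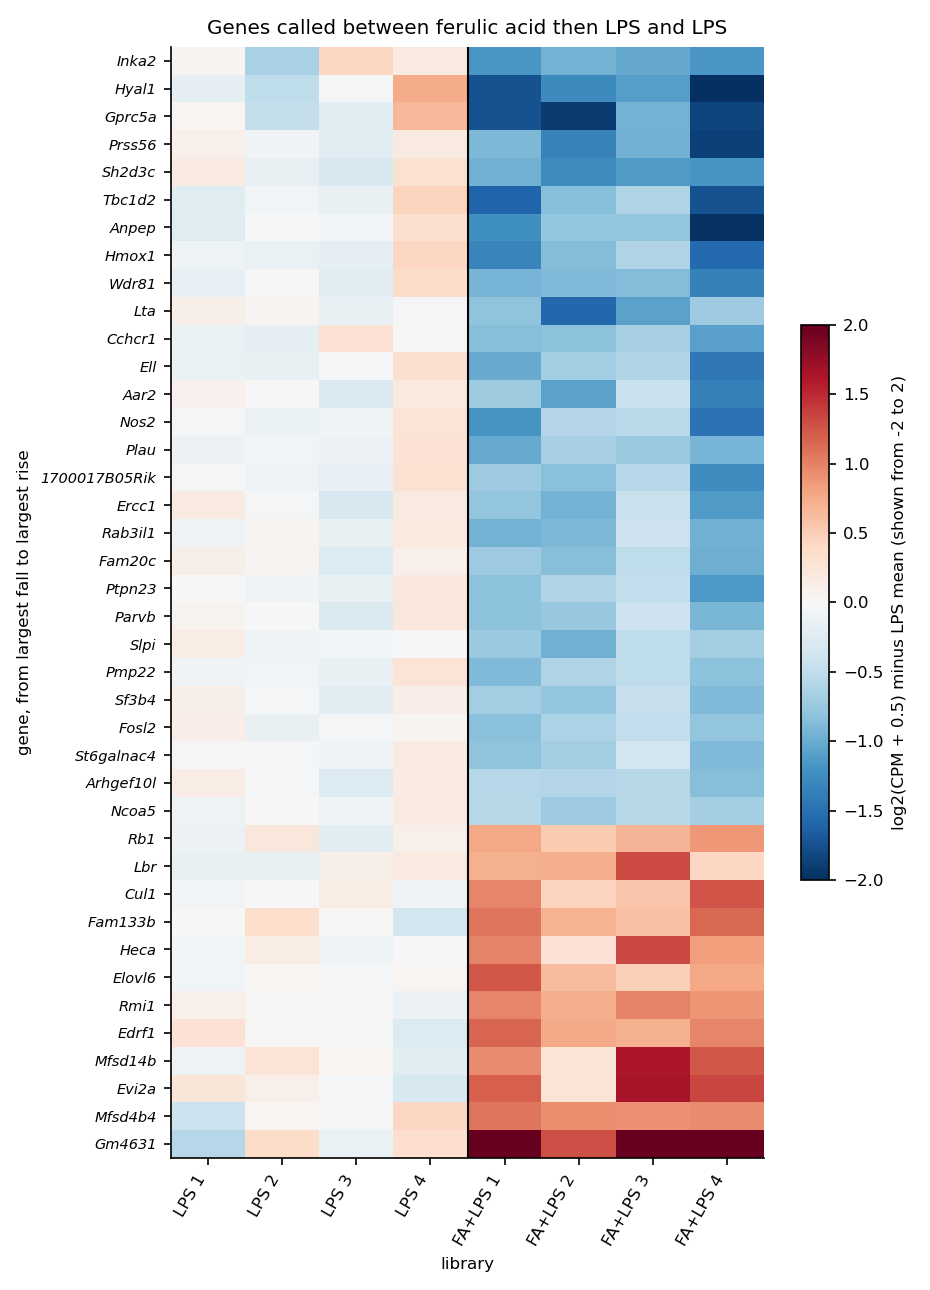
Heat map of the 40 called genes by library, as log2(CPM + 0.5) minus the mean of the LPS libraries, ordered from the largest fall to the largest rise, with colours limited to -2 and 2. All 4 ferulic acid columns share one colour per gene, palest in library 3 for 26 genes and deepest in library 4 for 23.

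The remaining readouts of macrophage activation were not called, and several followed the split between libraries. Prdx1 read 3950.0, 4614, 3705 and 3749 CPM with LPS and 6635, 2357, 3808 and 7682 CPM after ferulic acid. Libraries 1 and 4 lay above every LPS library, library 2 below and library 3 within the range (log2 fold change 0.35, SE 0.27, adjusted p = 0.437, 95% interval -0.21 to 0.92). Tlr4, the LPS receptor gene, read 2.83, 4.87, 3.2 and 4.33 CPM and then 9.97, 4.07, 3.54 and 7.6 CPM, again high in libraries 1 and 4 and within the LPS range in 2 and 3 (log2 fold change 0.71, adjusted p = 0.156). Ptgs2 read 7725, 8428, 6446 and 6070.0 CPM and then 12760.0, 7452, 9532 and 15780.0 CPM, with libraries 1, 3 and 4 above and library 2 inside the LPS range (log2 fold change 0.67, adjusted p = 0.105). Il6 read 1118, 1229, 772 and 793 CPM and then 1533, 599, 990.5 and 2121 CPM, with libraries 1 and 4 above every LPS library and library 2 below. Its adjusted p was 0.39. Il1b read 968, 942, 1045 and 675 CPM and then 1396, 1087, 949.8 and 1659 CPM (log2 fold change 0.49, adjusted p = 0.231). The chemokine genes Ccl2 and Cxcl10 had overlapping groups, with 72.4, 32.5, 42.4 and 76.4 CPM of Ccl2 after ferulic acid against 69.5, 71.7, 49.7 and 66.3 CPM with LPS, and 62, 72.1, 66.5 and 61.3 CPM of Cxcl10 against 82.7, 73.2, 64.2 and 73.3 CPM. Their 95% intervals were -0.72 to 0.32 and -0.50 to 0.17 on the log2 scale. Nfe2l2, which encodes the antioxidant regulator NRF2, read 35.1, 24.5, 23.6 and 40.4 CPM after ferulic acid against 28.5, 28.2, 26.6 and 26.1 CPM with LPS, and Keap1, its inhibitor, 35.2, 31.4, 33.5 and 22.6 against 37.3, 31.8, 36.4 and 37.9 CPM. The costimulatory ligand Cd86 read 5.25, 8.11, 7.77 and 7.27 CPM against 7.55, 11.6, 10.7 and 8.39 CPM, and Nlrp3, the inflammasome sensor, 12.7, 30.3, 20.9 and 15.5 CPM against 16.7, 14.5, 22.2 and 17.1 CPM. Il10 and Il12b stayed under 5 CPM in all 8 libraries.

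Peroxiredoxins, the family of the protein named in the title, showed no call. Of 7 genes of peroxiredoxins and sulfiredoxin none was called or free of overlap, and the median log2 fold change was 0.10, -0.04 without libraries 1 and 4. Prdx4, of the endoplasmic reticulum, read 318, 302, 275 and 255 CPM with LPS and 445, 203, 319.8 and 499.6 CPM after ferulic acid, with the same order of libraries as Prdx1. Prdx6 read 322, 279, 298 and 288 CPM and then 228, 265, 312 and 216 CPM, with libraries 1 and 4 the lower pair, and Srxn1, the sulfiredoxin that repairs oxidised peroxiredoxins, 19.7, 19.5, 25.1 and 31.5 CPM and then 15.5, 26.8, 20.6 and 16.4 CPM. Among 14 genes of the thioredoxin and glutaredoxin system the count was also 0 called and 0 without overlap, with a median of -0.02. Of 20 NRF2 regulators and targets tested, 0 were called, Sqstm1 and Maff lay below without overlap and Gclm above. The shares over all tested genes were 4.36% below and 2.67% above. Sqstm1, the autophagy receptor p62, read 5570.0, 5783, 5666 and 7098 CPM and then 3422, 4043, 5318 and 3264 CPM (log2 fold change -0.59, adjusted p = 0.0939). Gclm, a subunit of the enzyme that limits glutathione synthesis, read 42.3, 39.5, 42 and 42.2 CPM and then 57.5, 57.9, 45.5 and 46.1 CPM (adjusted p = 0.191).

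In a first set of gene lists the median lay below the LPS mean in each ferulic acid library. The 22 feedback inhibitors of TLR signalling had 0 called and 5 below without overlap, beside 4.36% of all tested genes, with library medians of -0.28, -0.28, -0.20 and -0.33 as log2(CPM + 0.5) minus the LPS mean. The median fold change was -0.23, and -0.13 with the GC trend removed. The 5 were Atf3, Dusp4, Zc3h12a, Il1rn and Zfp36, which encode a repressor, a phosphatase of MAP kinases, an endonuclease of cytokine mRNAs, the interleukin 1 receptor antagonist and tristetraprolin. Atf3 read 725, 695, 779.7 and 859.7 CPM with LPS and 412, 556, 553 and 391 CPM after ferulic acid (adjusted p = 0.0582), and Dusp4 338, 339, 301 and 449 CPM and then 195, 224, 270.1 and 139.7 CPM (adjusted p = 0.0647). The 19 AP-1, EGR and ATF factors had library medians of -0.34, -0.27, -0.19 and -0.28, with Fosl2 called and Atf3 and Jun also below. With the GC trend removed, the median fold change of this list went from -0.34 to -0.10. Of 18 p53 target and growth arrest genes, 5 lay below and 1 above without overlap, against 4.36% and 2.67% over all genes. Cdkn1a, the cell cycle inhibitor p21, read 789.9, 635, 662 and 732 CPM and then 451, 455, 581 and 401 CPM (adjusted p = 0.0738), and Plk3, Gadd45b, Zmat3 and Trp53 were the others. Sesn1 was the 1 above. The list's library medians were -0.30, -0.20, -0.20 and -0.22.

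The unfolded protein and integrated stress response gave a like picture. Of its 23 genes 0 were called and 5 lay below without overlap (4.36% over all genes), and the library medians were -0.28, -0.05, -0.08 and -0.30. The median fold change of -0.15 was -0.06 without libraries 1 and 4 and -0.32 without libraries 2 and 3. Ppp1r15a, the phosphatase subunit GADD34, read 354, 347, 351 and 472 CPM with LPS and 176, 238, 274 and 131 CPM after ferulic acid (log2 fold change -0.90, adjusted p = 0.0582), and Sesn2, Atf4, Sdf2l1 and Ddit3 were the others. Libraries 1 and 4 were the lowest for Ppp1r15a. Of 22 glycolysis and HIF1 target genes, 5 lay below without overlap, beside the same 4.36%. Slc2a1, the glucose transporter GLUT1, read 683, 594, 639.8 and 646 CPM and then 439, 491, 552 and 437 CPM (adjusted p = 0.101), and Ndrg1, Hk3, Hk1 and Tpi1 were the others. The median of this list was -0.33, and -0.13 with the GC trend removed. Of 22 lysosomal genes 0 were called, with a median of -0.32 that was -0.12 without libraries 1 and 4 and -0.55 without libraries 2 and 3.

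In a second set of lists the median lay above the LPS mean in each ferulic acid library, in some lists only slightly. Of 26 genes of G2 and mitosis 0 were called, while 6 lay above and 0 below without overlap, beside the 2.67% above over all genes. Library medians were 0.18, 0.37, 0.26 and 0.27, with library 2 the highest. Cenpf, a kinetochore gene, read 3.05, 3.93, 4.01 and 1.97 CPM with LPS, 8.14, 6.01, 5.29 and 6.65 CPM after ferulic acid and 56.8 ± 7.1 CPM in control (adjusted p = 0.0531). Kif11, the spindle motor Eg5, read 5.44, 6.86, 9.34 and 7.87 CPM and then 12.9, 11, 10.6 and 15.2 CPM (adjusted p = 0.0636). Cdk1, the mitotic kinase, read 85.7, 79.9, 88.7 and 73.7 CPM and then 120.1, 97.3, 98.9 and 129 CPM, and Ccna2, Birc5 and Kif23 were the other 3. The list's median fold change was 0.21, 0.14 with the GC trend removed and 0.12 without libraries 2 and 3. The retinoblastoma, cyclin and E2F list of 23 genes was drawn up with Rb1 and Cul1 known to be called. Those 2 were called, as that choice fixed. The library medians of this list were near 0, at 0.02, 0.12, 0.001 and 0.03, with 13 positive and 10 negative fold changes. Rbl1, a relative of Rb1, and Cdk6 were also above without overlap, and Ccnd1, cyclin D1, lay below at 45.1, 37.1, 42.3 and 44.3 CPM and then 26.8, 34.7, 31.7 and 25.7 CPM (adjusted p = 0.0858). Over all tested genes 0.0853% were called higher, and 2.67% lay above and 4.36% below without overlap. The 1 of 23 below is thus near the share over all genes.

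Interferon-stimulated genes lay on both sides of the LPS level, more often above it, with 28 positive and 8 negative log2 fold changes. Of 36 tested, 0 were called, 4 lay above and 2 below without overlap, where all tested genes had 2.67% above and 4.36% below, so the 2 below are near the share over all genes. The library medians were 0.12, 0.33, 0.14 and 0.26. Trim30a, an E3 ligase family gene, read 24.7, 30.4, 32.7 and 21.6 CPM with LPS and 46.4, 39.3, 54.6 and 50.3 CPM after ferulic acid (adjusted p = 0.0548). Ifi44, Irgm1 and Isg20 were the others above. Oasl1 read 885, 836, 759 and 1053 CPM and then 483, 476, 668 and 392 CPM (adjusted p = 0.0636), and Isg15, the ubiquitin-like modifier, 224, 244, 243 and 265 CPM and then 205, 196, 212 and 201 CPM (adjusted p = 0.486). Among 22 cholesterol synthesis and uptake genes 2 lay above (Msmo1 and Sc5d) and 1 below. The same 2.67% above and 4.36% below over all genes stand beside these counts and those of the fatty acid list. In the fatty acid list of 21, Elovl6 was called, Scd1 also lay above, and Fasn, the fatty acid synthase, read 55.5, 52.5, 51.2 and 58.2 CPM and then 30.6, 40.6, 40.8 and 26.6 CPM, below in every library (adjusted p = 0.0684). Plin2, which encodes a lipid droplet protein, and Fabp5, a fatty acid-binding protein gene, were the other 2 of 3 below (adjusted p = 0.0847 and 0.174). The list's median was -0.17, with 13 of 21 fold changes negative. It was 0.14 without libraries 1 and 4 and -0.45 without libraries 2 and 3.

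Other lists took opposite signs in the ferulic acid libraries. The 13 protein-coding mRNAs of the mitochondrial genome had library medians of 0.58, -0.72, 0.08 and 0.87. Their median fold change was 0.32, but -0.34 without libraries 1 and 4, 0.77 without libraries 2 and 3 and -0.13 with the GC trend removed. The 34 cytosolic ribosomal protein genes had library medians of 0.40, -0.35, 0.10 and 0.43, and 25 nuclear genes of the respiratory chain 0.24, -0.34, 0.09 and 0.31. None of these 3 lists had a called gene or one without overlap. Over all tested genes 0.284% were called, and 2.67% lay above and 4.36% below without overlap. All ribosomal protein genes together took 21.7%, 13.6%, 17.2% and 21.8% of the reads in ferulic acid libraries 1 to 4 and between 14.6% and 16.8% in LPS libraries. The 13 chemokine genes tested behaved in the same way, with library medians of 0.14, -0.34, -0.14 and 0.26. Ccl9 read 4980.0, 5232, 5940.0 and 4956 CPM with LPS and 7769, 5691, 5422 and 8001 CPM after ferulic acid. Ccl22 was the 1 chemokine gene without overlap, beside 4.36% of all tested genes below. It read 202, 149, 149 and 144 CPM and then 116, 132, 134 and 125 CPM (adjusted p = 0.438).

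**Figure D3:**
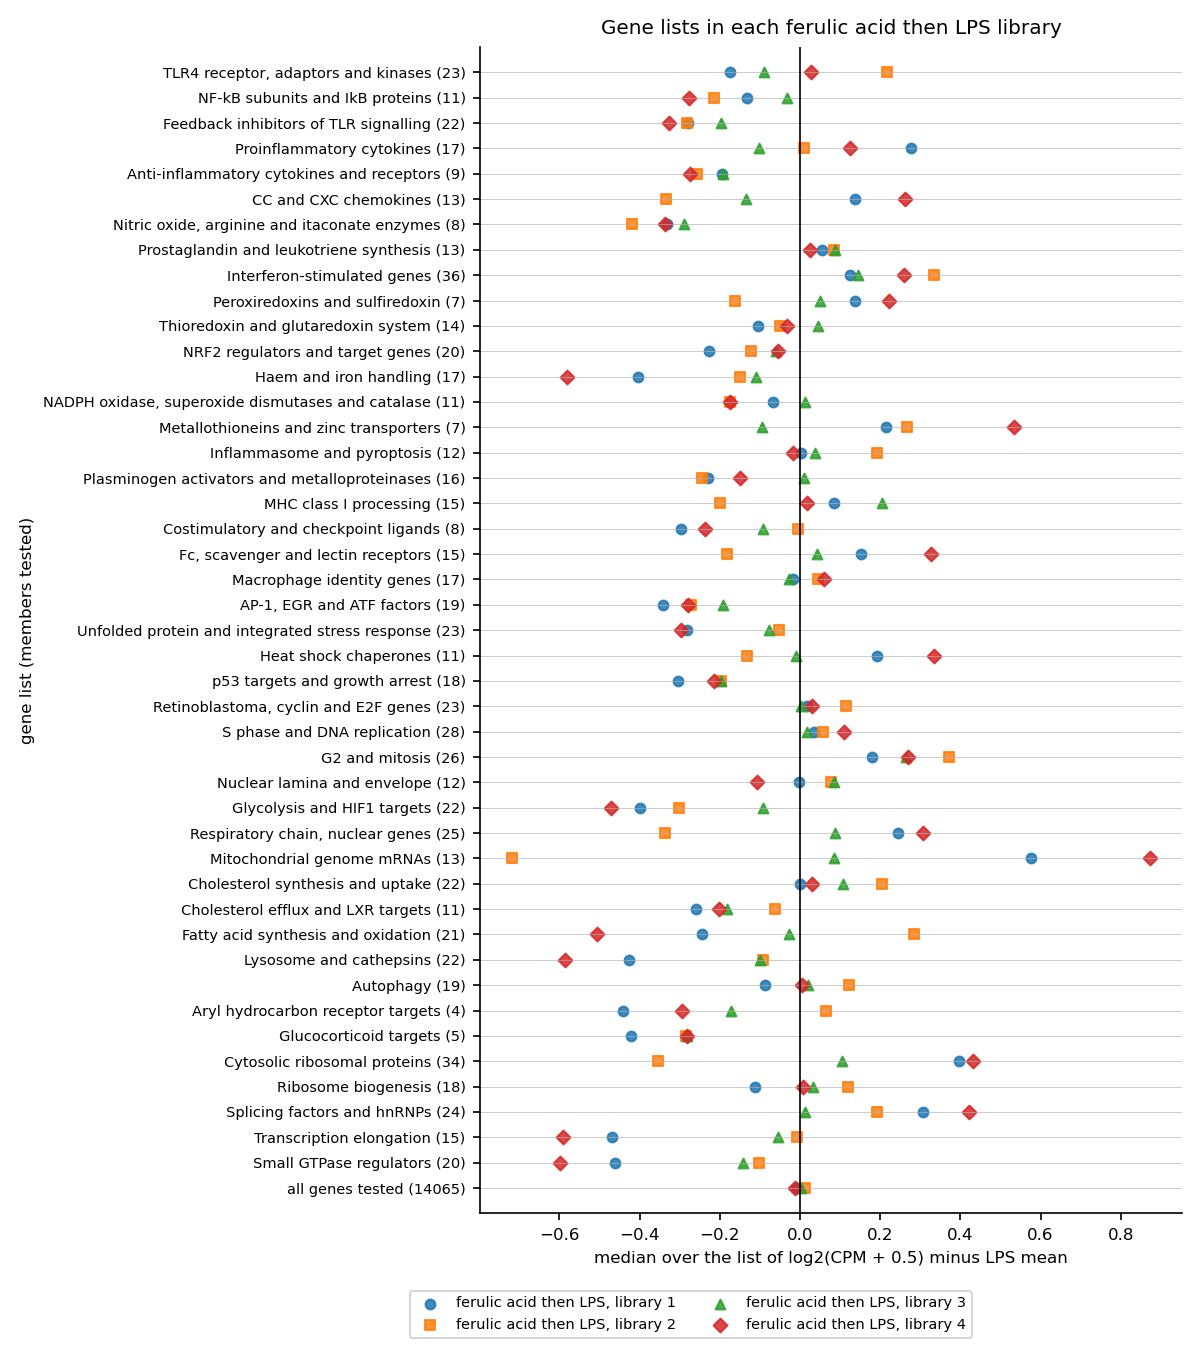
Median of log2(CPM + 0.5) minus the LPS mean over each gene list, with 1 symbol per ferulic acid library and the number of tested members in brackets. The 4 symbols of the G2 and mitosis list lie between 0.18 and 0.37, while those of the mitochondrial mRNAs spread from -0.72 to 0.87.

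Across the 44 lists that are not cell markers, the median lay below the LPS mean in all 4 ferulic acid libraries for 16 lists and above it for 6, and 11 lists held a called gene. The median fold change took the other sign without libraries 1 and 4 in 12 lists, without libraries 2 and 3 in 7, with the GC trend removed in 9 and with library size scaling in 0. In the glucocorticoid target list of 5 genes the fitted median was 0.02 although all 4 library medians were below 0. The 23 genes of the TLR4 receptor complex, adaptors and kinases had 0 called and 1 without overlap, Tab1, below. For comparison, 4.36% of all tested genes lay below without overlap. Of 11 NF-kB and IkB genes 1 lay below without overlap, Nfkbid, at 18.4, 17.3, 16.1 and 18.3 CPM and then 10.5, 12.2, 11.5 and 6.02 CPM (adjusted p = 0.0673).

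The called genes differed from the rest in base composition, and so did the ferulic acid libraries. The median GC content of the longest transcript was 55.1% for the 28 genes called lower, 43.7% for the 12 called higher and 49.7% for all tested genes. It was 55.7% for the 613 genes below without overlap and 44.7% for the 375 above. Per 10 points of GC, log2 CPM relative to the LPS mean changed by -0.40, -0.23, -0.08 and -0.56 in ferulic acid libraries 1 to 4 and by between -0.12 and 0.11 in the LPS libraries. An exact permutation test of the 4 and 4 slopes gave a two-sided p = 0.0571, or 0.4 adjusted over 7 library measures, and the smallest p that this design allows is 0.0286. With the GC trend removed in each library, 4 genes were called, all lower: Sh2d3c (-0.95, adjusted p = 0.0209), Hmox1 (-0.89), Plau (-0.91) and Pmp22 (-0.73). Over the 40 called genes, the median ratio of the log2 fold change in that fit to the one reported above was 0.770. The cause of the GC trend was not tested.

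**Figure D4:**
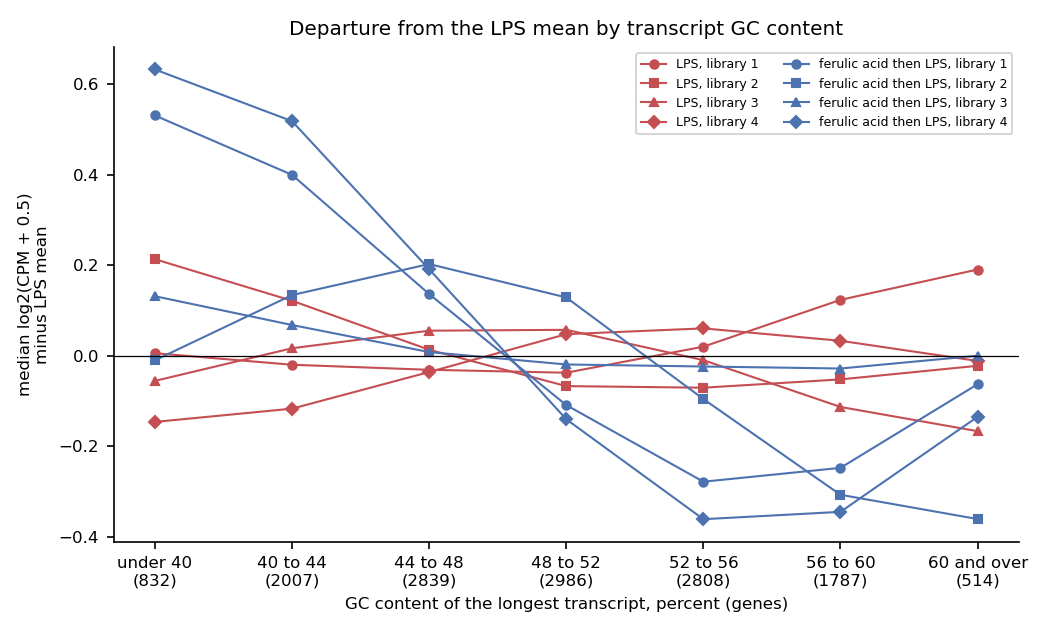
Median of log2(CPM + 0.5) minus the LPS mean in 7 classes of transcript GC content, with 1 line per library. Ferulic acid libraries 1 and 4 reach 0.53 and 0.63 under 40% GC and -0.28 and -0.36 from 52 to 56%, while library 3 stays between -0.03 and 0.13.

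The number of calls rested on which libraries were in the fit. Without ferulic acid libraries 2 and 3 it was 5664, without libraries 1 and 4 it was 7, with only the 8 compared libraries 0 and without any 1 control library 1. Sh2d3c was the 1 gene called in each of the 4 fits that lacked a control library. Without libraries 1 and 4 the called genes were Sh2d3c, Lta and Lbr among the 40 and 4 others. The 40 genes were chosen by their p-values, and 39 of them had no overlap between the groups, so their direction when libraries are left out was fixed by that choice.

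**Figure D5:**
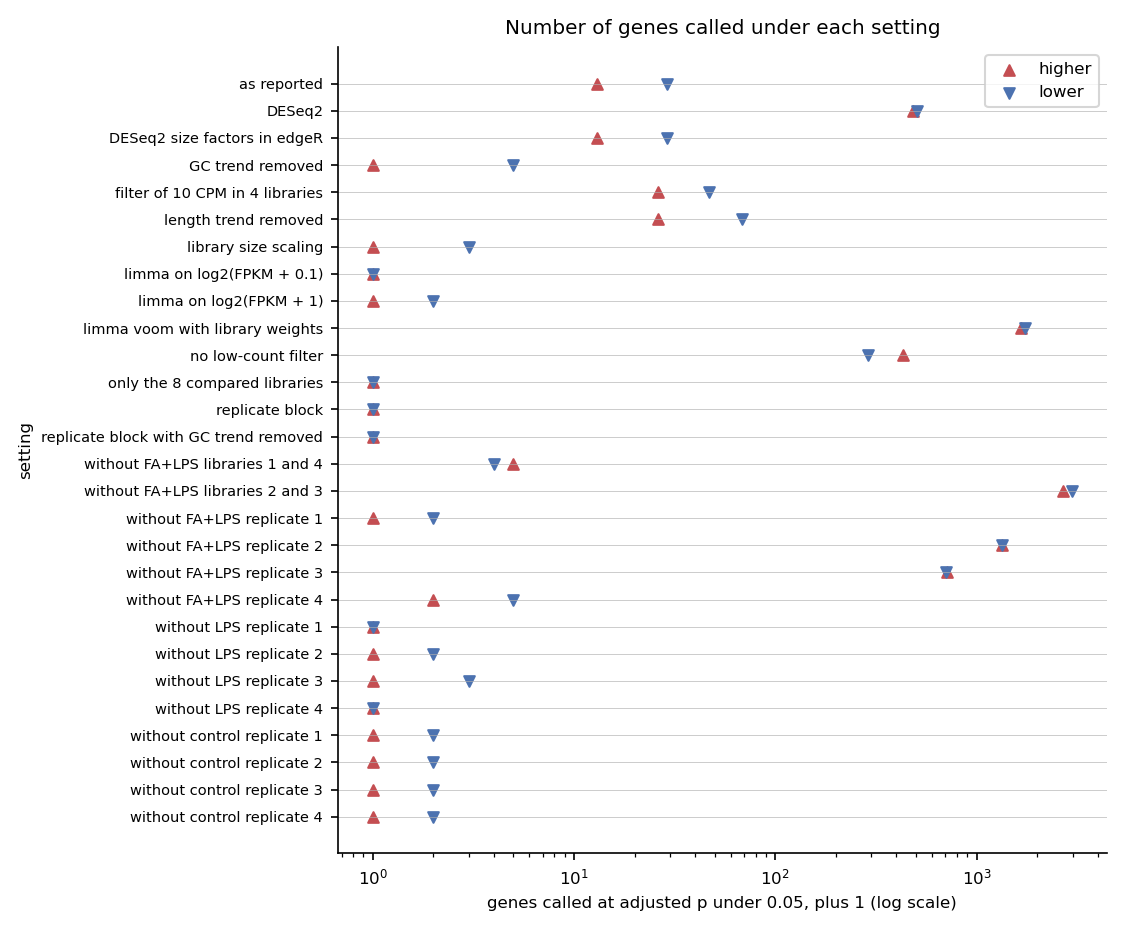
Number of genes called higher and lower after ferulic acid under each setting, plus 1, on a log axis. The counts run from 0 in both directions with only the 8 compared libraries to 2685 higher and 2979 lower without ferulic acid libraries 2 and 3.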

How the data were processed

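Poly(A) RNA of 4 control, 4 LPS and 4 ferulic acid then LPS libraries was sequenced. The authors deposited a table of unnormalized read counts per gene, per the file headers. FPKM values were deposited in the same table, per the file headers, and served as an alternative. The submitters' processing notes name edgeR 3.36.0, DESeq2 1.34.0, featureCounts 2.0.6, HISAT2 2.2.1 and fastp 0.23.4, and build GRCm39. The step each served, the annotation release and the strand setting are not given in the sources used here. Reads of near-identical genes could be lost or shared.

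Counts were scaled by TMM and tested with the quasi-likelihood F test of edgeR 4.0.16 in R 4.3.3 (limma 3.58.1), where 1 fit held all 12 libraries and the group was its only term. The filter of filterByExpr left out 11127 genes, which hold 0.0421% of the reads. P-values were adjusted by Benjamini-Hochberg over 14065 genes. Each SE was obtained from the fold change and its F value, and intervals are 95%. Between libraries, totals of 32548423 to 49961581 counts set the precision, and intervals do not cover bias in the reads. Every pair of libraries in a group differed beyond counting noise. GC content came from the longest GENCODE M21 transcript (build GRCm38) for 97.9% of the tested genes, and the same annotation gave overlapping genes. For the GC alternative a lowess trend (span 0.3) was removed per library. Promoters were found for 42 of 54 genes. Library measures were compared by an exact permutation test.

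Genes named are all 40 called, 16 readouts and, for each list described, called members and up to 3 with the smallest p; members without overlap, and the cell markers Lum, Lck, Ighm, Cd79a, Col1a1 and Col3a1, were added after their values were seen. The comparison, the rule and the 51 gene lists were chosen with earlier results of these data known, so lists are given by counts and medians. Alternatives were 27 settings, including DESeq2 1.42.0, other scalings and filters, FPKM with limma and libraries left out. Some genes are not reported here by name.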

Additional observations from a re-analysis of the deposited data

Results flagged for a closer look

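In a group of 4 libraries, a highest or lowest value was singled out where its gap to the nearest other value took up most of the group's range (Dixon's test). Of 108 pairs of a named gene and a group, 6 met this, and chance gives about 1 in 20. In the ferulic acid group, library 3 was high for Gprc5a (7.197 CPM, the others 3.436 to 3.907) and for Rab3il1 (52.5 CPM, the others 36.07 to 37.59). In the same group, library 4 was low for Wdr81 (5.804 CPM, the others 7.976 to 8.359) and for Arhgef10l (18.99 CPM, the others 22.98 to 23.52). In the LPS group, library 4 was high for Hmox1 (931.5 CPM, the others 612.6 to 656.8) and for Plau (22.02 CPM, the others 16.47 to 17.19). All 6 genes were called lower after ferulic acid, and their groups did not overlap. Of the 54 genes screened 40 were called genes, 28 of them lower, so this was partly fixed by that choice. The 6 of 108 pairs are near the 1 in 20 that chance gives.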

How the results depend on the processing

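Against 12 genes called higher and 28 lower, the counts were 481 and 504 with DESeq2, 0 and 4 with the GC trend removed, 25 and 46 with a filter of 10 CPM in 4 libraries, 25 and 67 with the length trend removed, 0 and 2 with library size scaling, 0 and 0 with limma on log2(FPKM + 0.1), 0 and 1 on log2(FPKM + 1), 1659 and 1741 with limma voom and library weights, 432 and 287 with no low-count filter and 0 and 0 with only the 8 compared libraries. They were 4 and 3 without ferulic acid libraries 1 and 4, and 2685 and 2979 without libraries 2 and 3. DESeq2 size factors inside edgeR gave 12 and 28 again. Where edgeR on the 8 libraries called 0, 2082 genes had an unadjusted p under 0.05 (2668 with limma on log2(FPKM + 0.1)). Leaving out 1 library at a time gave 0 to 1334 higher and 0 to 1336 lower. Both counts were 0 without LPS library 1 (2781 genes at an unadjusted p under 0.05) or LPS library 4 (2057), and 1 gene in all was called without ferulic acid library 1, without LPS library 2 or without any 1 control library. In all, 2670 genes were called without ferulic acid library 2, 1415 without library 3, 5 without library 4 and 2 without LPS library 3.

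The labels do not say whether the replicate numbers pair the samples. Same-numbered LPS and ferulic acid libraries had correlations of -0.20 to 0.08 in their deviations from the group means. Of 4 ferulic acid libraries, 1 correlated best with its own number. With 4 libraries in a group this check cannot exclude a pairing. With the replicate number as a block, 0 genes were called higher and 0 lower (2450 at an unadjusted p under 0.05), and also 0 and 0 with the block and the GC trend removed together (1610).

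Counts of genes without overlap, 375 above and 613 below, were recomputed in settings chosen after seeing the data. They were 463 and 425 with library size scaling, 820 and 914 without ferulic acid libraries 1 and 4, 3569 and 3575 without libraries 2 and 3, and 458 to 1199 and 667 to 1425 with 1 library left out. Fewer libraries make non-overlap easier to reach, so counts with libraries left out cannot be compared with 375 and 613.

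For the 54 genes named by the first parts of the rule, 705 of the values kept direction and side of the threshold, 697 kept direction only, 25 newly passed and 20 changed sign. Those that newly passed were Tnf and Ptgs2 in 6 settings each, Tlr4 in 4, Prdx1 and Il6 in 3 each, Il1b in 2 and Nfe2l2 in 1, with DESeq2, voom weights or no low-count filter, or without ferulic acid library 2, library 3 or both. The 20 that changed sign all belong to readouts that were not called, as log2 fold changes. Without ferulic acid libraries 1 and 4 they were -0.38 for Prdx1, -0.0020 for Tlr4, -0.30 for Il6, -0.80 for Il10 and -0.18 for Nfe2l2. Without libraries 2 and 3 they were 0.34 for Il12b, 0.20 for Ccl2 and -0.34 for Nlrp3. With voom weights they were 0.13 for Il12b, 0.031 for Ccl2 and -0.20 for Nlrp3. The GC trend removed gave 0.018 for Keap1, and with the replicate block 0.011 for Keap1, -0.0068 for Prdx1 and -0.039 for Il6. Leaving out 1 library gave -0.49 to 0.22 for Il12b, -0.035 to 0.83 for Il10 and -0.12 to 0.33 for Nlrp3. The cause was not tested for any of these changes. Few reads limit Inka2, Gm4631, Mfsd4b4, Il10 and Il12b.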

Other observations

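Genes that separated ferulic acid libraries 1 and 4 from libraries 2 and 3 were looked at after their values were seen, and are given as values only. Of 4026 abundant genes, 15 were at least 2-fold higher in the lower of libraries 1 and 4 than in the higher of libraries 2 and 3, and 4 were at least 2-fold lower. Rpl39, a ribosomal protein gene, read 5574, 940, 2133 and 6309 CPM in ferulic acid libraries 1 to 4 and between 1443 and 2481 CPM in the LPS libraries. Ndufb1, Atp5mk and Rps27l were also among the higher genes, and Safb, Coro1c and Sema4d among the 4 lower ones. None of the genes named here was called.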
